A study of Mus musculus with 200 samples.

Results

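The genes described here are the glucocorticoid receptor gene Nr3c1 and 9 genes that the receptor is known to switch on: Fkbp5, Tsc22d3, Nfkbia, Sgk1, Klf9, Zbtb16, Hif3a, Errfi1 and Ddit4. They were chosen by symbol, and each of the 10 matched 1 row of a table of 56941 genes. RNA from 1 brain hemisphere per mouse was sequenced in 200 mice, 9, 24 or 72 h after a closed-head injury (CHI) or a sham operation. Sham mice had the same procedures, including isoflurane anaesthesia and a scalp incision, without the impact. The mice were C57BL/6J or carried 1 of 3 further strain labels, namely IL-1R1 gKO, then IL-1R1 eRestore, and lastly IL-1R1 nRestore. The labels name IL-1R1, the signalling receptor of interleukin-1, but do not say how gKO, eRestore and nRestore alter it, nor which promoter or cell type drives any restored allele.

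At 9 h there were 15 CHI and 6 sham C57BL/6J mice, 13 CHI and 6 sham IL-1R1 gKO mice, 12 CHI and 6 sham IL-1R1 eRestore mice, and 6 CHI and 4 sham IL-1R1 nRestore mice. At 24 h the CHI and sham groups held 14 and 6 C57BL/6J, 12 and 6 IL-1R1 gKO, 9 and 5 IL-1R1 eRestore, and 8 and 5 IL-1R1 nRestore mice. At 72 h they held 14 and 6, 12 and 6, 12 and 6, and 6 and 5 mice in the same order. Ages ran from 3.3 to 7.67 months, and both sexes were present except among the IL-1R1 nRestore mice at 72 h, which were all labelled male. Per the study's methods, which cover the C57BL/6J mice only, operations were done in the morning. Tissue of those mice taken at 9 h thus came from a different time of day than tissue taken at 24 or 72 h. The methods do not give the hour of operation for the other strains. The 9 h mice also came from 3 experiments that held no later time point, and sham mice were 3.3 to 4.8 months old at 9 h, 4.3 to 5.93 at 24 h and 4.6 to 7.67 at 72 h. Time after surgery, time of day and experiment cannot be told apart, and age differs along with them, when levels are compared between 9 h and later.

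The labels were checked against the data before any comparison. Il1r1 itself was not lower in the strains named for it. Its median was 2.00 TPM, a unit that corrects the count for transcript length and sequencing depth (range 0.998 to 4.77, n = 61) in C57BL/6J mice, 3.94 TPM (2.39 to 7.86, n = 55) in mice labelled IL-1R1 gKO, 3.09 TPM (2.07 to 6.45, n = 50) in mice labelled IL-1R1 eRestore and 3.83 TPM (2.31 to 5.57, n = 34) in mice labelled IL-1R1 nRestore. A count over the whole gene does not show which exons were read, and the strain names below stand for the labels only. Xist and Ddx3y went against the sex label in 2 mice, 1 IL-1R1 eRestore sham mouse at 24 h and 1 IL-1R1 nRestore CHI mouse at 72 h, and leaving them out changed no CHI call among the 10 genes. Libraries held between 14857985 and 57355676 estimated counts, with a median of 20258935.5. Markers of neurons, astrocytes, oligodendrocytes, microglia and endothelial cells were present as a brain hemisphere should show them.

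The glucocorticoid receptor is a transcription factor that waits in the cytoplasm in a complex with Hsp90. Corticosterone, the main glucocorticoid of mice, releases it to the nucleus, where it binds DNA as a dimer at glucocorticoid response elements. Corticosterone rises with stress and with the daily cycle, and most brain cells carry the receptor. Several of its targets act back on it or on inflammation: Fkbp5 makes an Hsp90 co-chaperone that lowers the receptor's affinity for hormone, and Tsc22d3 and Nfkbia make proteins that restrain NF-kB.

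The response element has a palindromic core, taken here as GNACA and TGTNC with 3 bases between them, and it was searched for in the GRCm39 genome around the canonical start of each gene. None of the 10 genes held it in the 300 bases from 250 before to 50 after the start, where 0.381% of 21770 protein-coding genes did. The shorter site AGAACA, searched on both strands, was also found in 0 of 10 of these promoters, against 17.0% of all. In a window of 10000 bases centred on the start, 3 of 10 genes held the full core, against 15.5% of all protein-coding genes. The 3 matches are shown, 5′ to 3′ on the gene's strand, because these are the genes of the 10 that hold one. Capitals mark the 13 bases that match, with 8 flanking bases on each side, and the motif is its own reverse complement.
Fkbp5: ggggctcgGGACAGGGTGTACagcgcttg
Sgk1: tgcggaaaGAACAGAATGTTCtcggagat
Nfkbia: aatccagaGAACAGCTTGTGCggggacac
The printed Fkbp5 stretch lies at chr17:28703919-28703947 on the minus strand, in an intron, and its match is 1219 bases past the start of the canonical transcript. The Sgk1 stretch lies at chr10:21869593-21869621 on the plus strand, upstream of the canonical start but within the bounds that the annotation gives the gene. The Nfkbia stretch lies at chr12:55535619-55535647 on the minus strand, with its match 3799 bases past the canonical start, outside the canonical transcript but within the bounds of the gene. A match of letters is a description, not a site at which binding was measured, and elements farther away would not be found in this window.

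In GRCm39 the genes lie apart. Fkbp5 (ENSMUSG00000024222) is at chr17:28618058-28737521, Tsc22d3 (ENSMUSG00000031431) at chrX:139440091-139501408, Nfkbia (ENSMUSG00000021025) at chr12:55535332-55539432 and Zbtb16 (ENSMUSG00000066687) at chr9:48563141-48748664, all on the minus strand. Hif3a (ENSMUSG00000004328) at chr7:16764918-16796352 and Ddit4 (ENSMUSG00000020108) at chr10:59785491-59788492 are also on the minus strand. Sgk1 (ENSMUSG00000019970) at chr10:21758083-21875802, Klf9 (ENSMUSG00000033863) at chr19:23118187-23148497 and Errfi1 (ENSMUSG00000028967) at chr4:150938376-150955402 are on the plus strand.

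The first question was whether CHI changed these genes at 9 h in C57BL/6J mice. It did so for 9 of 10: Nr3c1 fell and 8 targets rose, with Fkbp5 changing by far the most. Over all genes, 14.1% of 16967 passed the same threshold, an adjusted p under 0.05 in the quasi-likelihood test of edgeR, which took account of sex and age. Levels below are in CPM, the count divided by the scaled library size, and differences are CHI minus sham on the log2 scale with their standard error (SE). The median difference was 0.61 over the 10 genes and -0.01 over all genes tested.

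Nr3c1 itself lay between 103.7 and 178.1 CPM (median 153.9) in the 15 CHI mice and between 160.4 and 199.1 CPM (median 173.2) in the 6 sham mice. The groups overlapped through 1 CHI mouse, since 14 of 15 were below every sham mouse. The difference was -0.33 (SE 0.08), a fold of 0.793, with an adjusted p of 0.00406 in edgeR.

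Among genes that act back on the receptor or on NF-kB, Fkbp5 separated the groups completely. It ranged from 89.4 to 227 CPM (median 128) after CHI and from 29.8 to 38.2 CPM (median 32.2) after sham, so that the lowest CHI mouse stood above the highest sham mouse. The fold was 3.96 (95% confidence interval 3.17 to 4.94), with a log2 difference of 1.98 (SE 0.15) and an adjusted p of 5.8e-08 in edgeR. Tsc22d3, which encodes the leucine zipper protein GILZ, ranged from 97.1 to 145.98 CPM (median 124.9) after CHI and from 64.8 to 107.4 CPM (median 78.0) after sham. A single CHI mouse fell within the sham range, and the difference was 0.60 (SE 0.09, adjusted p = 3.37e-05 in edgeR). Nfkbia, which encodes the inhibitor that holds NF-kB in the cytoplasm and is itself switched on by NF-kB, ranged from 16.1 to 33.6 CPM (median 27.1) after CHI and from 13.5 to 20.0 CPM (median 17.9) after sham. It was above every sham mouse in 14 of 15 CHI mice, with a difference of 0.63 (SE 0.11, adjusted p = 0.000403 in edgeR).

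Sgk1, a kinase that acts on ion channels and transporters, was among the more variable genes. It ran from 113 to 313 CPM (median 237) after CHI and from 110.2 to 212 CPM (median 137) after sham, and 11 of 15 CHI mice were above every sham mouse. The difference was 0.67 (SE 0.14, adjusted p = 0.00235 in edgeR).

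The transcription factors moved by different amounts. Hif3a, a member of the hypoxia-inducible factor family, was the least abundant of the 10 genes, yet its groups did not overlap. It ranged from 7.0 to 16.4 CPM (median 11.1) after CHI and from 3.5 to 6.8 CPM (median 4.7) after sham, a fold of 2.32 (95% confidence interval 1.72 to 3.13, adjusted p = 0.000361 in edgeR). Klf9, a Krüppel-like factor, had the highest CPM of the 10, from 398 to 718 (median 544) after CHI and from 327 to 445 (median 373) after sham. Its difference was 0.51 (SE 0.08, adjusted p = 0.000156 in edgeR), with 12 of 15 CHI mice above every sham mouse. Zbtb16, which encodes the zinc finger protein PLZF, ranged from 36.6 to 106.2 CPM (median 70.1) after CHI and from 23.1 to 67.8 CPM (median 45.0) after sham. Its difference of 0.65 (SE 0.22) missed the threshold in edgeR (adjusted p = 0.0575). DESeq2 put it at an adjusted p of 0.0287, and leaving out either of 2 sham mice (replicate 3 or 6) put it at 0.0154 or 0.0436 in edgeR.

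The genes that restrain growth signals were both higher. Errfi1, which encodes an inhibitor of the EGF receptor, ranged from 35.8 to 65.1 CPM (median 50.5) after CHI and from 28.6 to 40.1 CPM (median 37.8) after sham, a difference of 0.45 (SE 0.10, adjusted p = 0.00342 in edgeR). Ddit4, which encodes the mTORC1 inhibitor REDD1 and also answers to hypoxia and cell stress, ranged from 37.8 to 71.2 CPM (median 50.9) after CHI and from 26.0 to 47.9 CPM (median 32.9) after sham. Its difference was 0.52 (SE 0.13, adjusted p = 0.0102 in edgeR), and 10 of 15 CHI mice were above every sham mouse.

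**Figure D1:**
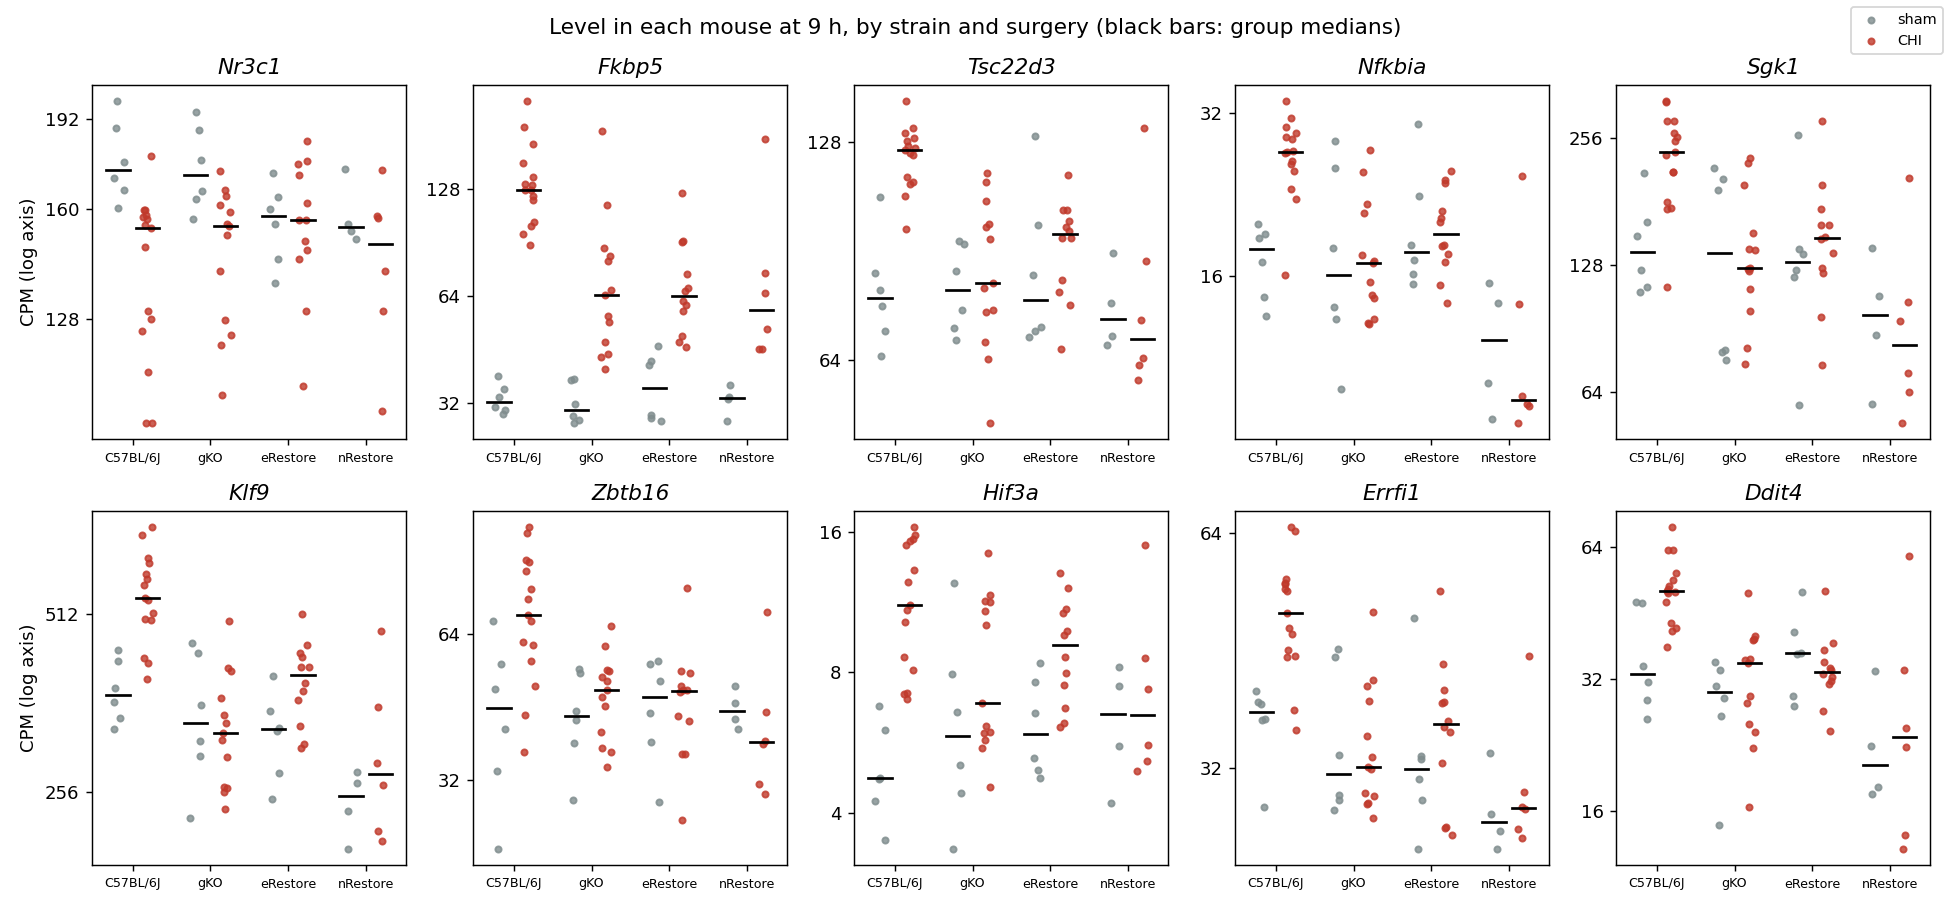
Level of each gene in CPM on a log axis in every mouse at 9 h, by strain, with sham mice in grey, CHI mice in red and group medians as black bars. Fkbp5 is at 89.4 CPM or more in all 15 C57BL/6J CHI mice and at 38.2 CPM or less in the 6 sham mice. Hif3a also separates in C57BL/6J mice, and the other genes overlap there. Most genes other than Fkbp5 overlap in the strains labelled gKO, eRestore and nRestore too.

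The same comparison was made in each of the other strains at 9 h. Fkbp5 was the only gene of the 10 whose CHI mice all lay above the sham median in every strain. In IL-1R1 gKO mice it ranged from 40.0 to 187.1 CPM (median 64.6) after CHI and from 28.1 to 37.4 CPM (median 30.6) after sham, with no overlap. The difference was 1.13 (SE 0.28), with an unadjusted p of 0.000925 that did not hold after adjustment in edgeR (0.117), whereas DESeq2 gave an adjusted p of 0.0078. In IL-1R1 eRestore mice it ranged from 46.2 to 125.04 CPM (median 64.3) after CHI and from 28.4 to 46.5 CPM (median 35.3) after sham, and rose by 0.94 (SE 0.21, adjusted p = 0.0173 in edgeR). In IL-1R1 nRestore mice the 4 sham values were 28.5, 32.9, 33.3 and 35.9 CPM, and the 6 CHI values ran from 45.5 to 177.9 CPM (median 58.6), again without overlap. The difference there was 1.40 (SE 0.52, adjusted p = 0.336 in edgeR), and it was 0.86 (adjusted p = 0.105) without the CHI mouse at 177.9 CPM, replicate 2.

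Of the other 9 genes, 1 passed the test in any of these strains. Klf9 rose in IL-1R1 eRestore mice, from 250 to 401 CPM (median 327) after sham to 303 to 512 CPM (median 404) after CHI, a difference of 0.31 (SE 0.09, adjusted p = 0.0303 in edgeR). When the fit held experiment rather than age, its difference was 0.22 (adjusted p = 0.0985). In the same strain Hif3a was higher by 0.54 (SE 0.18, adjusted p = 0.0639 in edgeR, 0.024 in DESeq2), and 7 of 12 CHI mice were above every sham mouse. Nr3c1 was lower by 0.23 in IL-1R1 gKO mice (adjusted p = 0.295 in edgeR), where 8 of 13 CHI mice were below every sham mouse. Its difference was -0.02 in IL-1R1 eRestore and -0.24 in IL-1R1 nRestore mice (adjusted p = 0.925 and 0.41 in edgeR). With gene-length offsets in DESeq2 its sign in IL-1R1 eRestore mice turned to positive. With no filter on low counts, Fkbp5, Sgk1, Klf9 and Ddit4 passed in IL-1R1 nRestore mice at nearly the same differences and smaller SEs. Ddit4 was at 0.75 (SE 0.11, adjusted p = 3.61e-09) there and at 0.74 (SE 0.46, adjusted p = 0.564) with the filter, and over 12 alternatives it ranged from 0.27 to 1.03, with adjusted p from 3.61e-09 to 0.876 in edgeR or DESeq2. The share of all genes called without the filter is not given here, so that count does not set these genes apart.

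In IL-1R1 gKO mice, 0 of 10 genes passed the threshold in edgeR, 2 had an unadjusted p under 0.05, and 1 passed in DESeq2. Of all genes there, 0.199% of 16604 passed. In IL-1R1 eRestore mice 2 of 10 passed, against 7.34% of 16652 genes. In IL-1R1 nRestore mice 0 of 10 passed in edgeR and 0 in DESeq2, 1 had an unadjusted p under 0.05, and 0.608% of 16788 genes passed. The median difference over the 10 genes was 0.05, 0.12 and 0.40 in these 3 strains, beside 0.00, -0.02 and 0.01 over all genes tested. The 0.40 of the IL-1R1 nRestore strain rested on 1 mouse and on the covariates: it was 0.09 without CHI replicate 2, which was the highest of the 6 CHI mice for each of the 9 targets and the lowest for Nr3c1, and 0.09 in a fit without sex and age. The median CPM of these CHI mice was below that of their sham mice for 6 of the 10 genes.

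**Figure D2:**
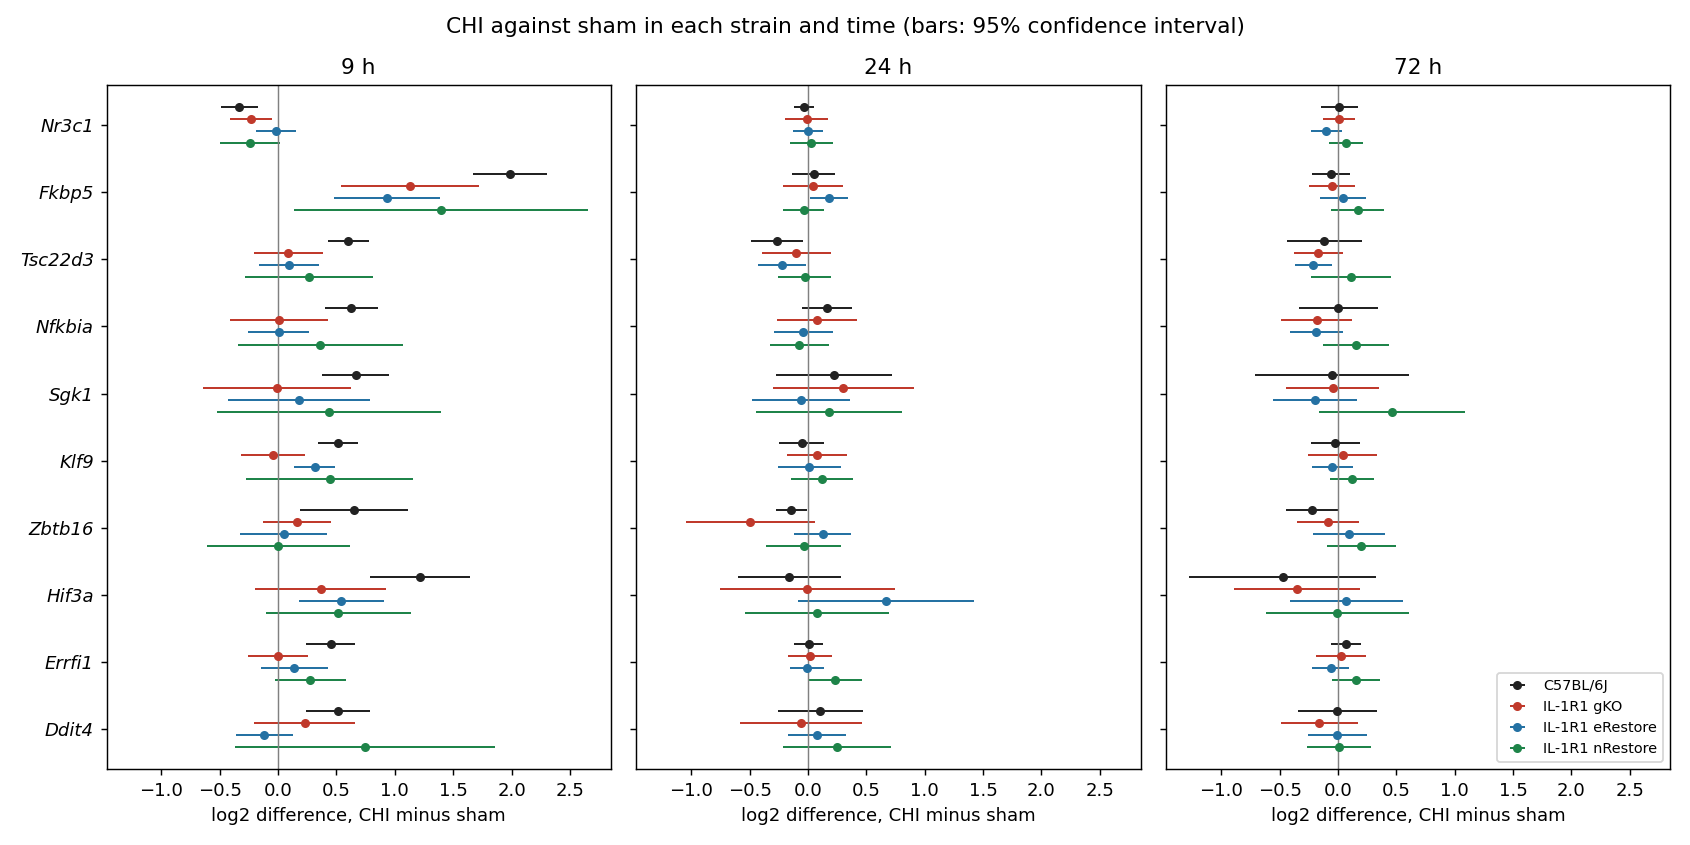
Log2 difference between CHI and sham for each gene, in panels for 9, 24 and 72 h, with a colour for each strain and bars for the 95% confidence interval. The Fkbp5 points at 9 h lie between 0.94 and 1.98, and at 24 and 72 h no gene passed the adjusted threshold in any strain.

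Whether the CHI effect differed between strains was tested directly, as the effect in each strain minus that in C57BL/6J mice. All 3 comparisons share the C57BL/6J mice. They come from 1 fit in which sex and age have the same effect in every strain, so they are not the plain differences of the values above, which were fitted strain by strain. At 9 h 0 of 10 genes passed in any of them in edgeR. At an unadjusted p under 0.05 there were 6 genes for IL-1R1 gKO, 7 for IL-1R1 eRestore and 3 for IL-1R1 nRestore, and DESeq2 was not run on these terms. The share of all genes at that unadjusted threshold is not given here, so these counts do not set the 10 genes apart. After adjustment few genes passed at all, with 0.0%, 0.0107% and 0.00534% of 18741.

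For Fkbp5 the effect was smaller than in C57BL/6J by 0.85 in IL-1R1 gKO mice (95% confidence interval of the difference -1.52 to -0.18, adjusted p = 0.639 in edgeR). It was smaller by 1.08 in IL-1R1 eRestore mice (-1.75 to -0.40, adjusted p = 0.237) and by 0.74 in IL-1R1 nRestore mice (-1.53 to 0.04, adjusted p = 0.916). For Tsc22d3 the differences were -0.52 (-0.89 to -0.15), -0.52 (-0.89 to -0.15) and -0.48 (-0.91 to -0.05) in that order. For Nfkbia they were -0.66 (-1.16 to -0.15), -0.67 (-1.18 to -0.17) and -0.59 (-1.19 to 0.01). For Hif3a they were -0.86 (-1.51 to -0.21), -0.69 (-1.34 to -0.03) and -0.89 (-1.65 to -0.13). These intervals are not adjusted for the number of genes, and the smallest adjusted p among the 10 genes was 0.493, 0.237 and 0.787.

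For Zbtb16 they were -0.51 (-1.04 to 0.02), -0.64 (-1.17 to -0.10) and -0.79 (-1.41 to -0.17). For the other 4 targets the intervals more often reached 0. Klf9 differed by -0.59 (-0.97 to -0.20) in IL-1R1 gKO mice but by -0.24 (-0.63 to 0.14) and -0.25 (-0.70 to 0.20) in IL-1R1 eRestore and IL-1R1 nRestore mice. Sgk1 differed by -0.70 (-1.41 to 0.02), -0.55 (-1.28 to 0.17) and -0.59 (-1.44 to 0.25). Errfi1 differed by -0.46 (-0.83 to -0.09), -0.35 (-0.72 to 0.02) and -0.34 (-0.78 to 0.09). Ddit4 differed by -0.30 (-0.87 to 0.27), -0.64 (-1.21 to -0.07) and -0.22 (-0.89 to 0.45). Fitted strain by strain, the CHI effect on Ddit4 was larger in IL-1R1 nRestore (0.74) than in C57BL/6J mice (0.52), the opposite direction. Nr3c1, which fell in C57BL/6J mice, differed by 0.08 (-0.18 to 0.34), 0.31 (0.05 to 0.57) and 0.19 (-0.12 to 0.50).

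C57BL/6J mice at 9 h came only from the experiments eIL-1-76 and eIL-1-80, and IL-1R1 nRestore mice only from TM-2-33. No experiment held both of these strains at 9 h, so their comparison was made across experiments. TM-2-33 also held 6 CHI and 2 sham IL-1R1 gKO mice. A comparison within eIL-1-76 and eIL-1-80 alone was added after seeing the data, with experiment in place of age in the fit. There the Fkbp5 effect was smaller than in C57BL/6J by 1.04 in IL-1R1 gKO mice (adjusted p = 0.281 in edgeR) and by 1.08 in IL-1R1 eRestore mice (adjusted p = 0.0589).

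**Figure D3:**
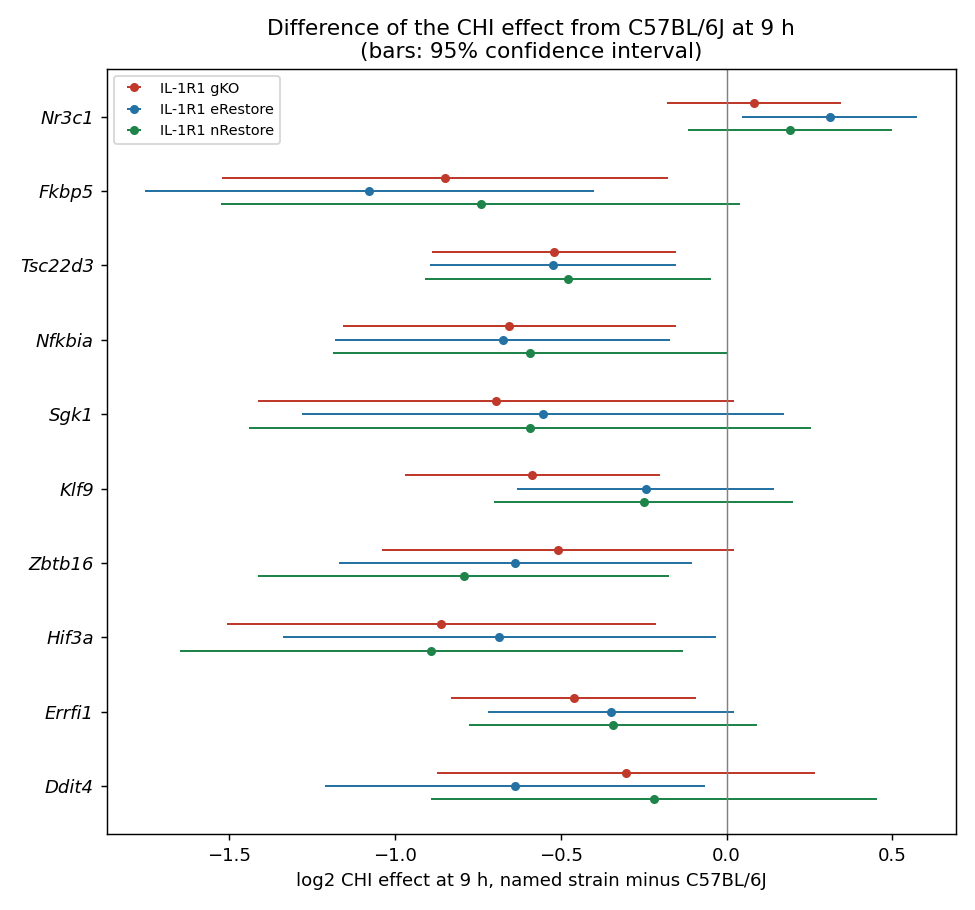
CHI effect at 9 h in each strain minus the CHI effect in C57BL/6J mice, on the log2 scale, with bars for the 95% confidence interval of that difference, not adjusted for the number of genes. The Fkbp5 differences lie at -0.85, -1.08 and -0.74, and no gene passed after adjustment.

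With the 4 strains fitted together at 9 h, 46 CHI mice were compared with 22 sham mice. Of the 10 genes 5 passed, against 26.5% of 16657 genes: Fkbp5, Hif3a, Klf9 and Tsc22d3 rose and Nr3c1 fell. Fkbp5 ranged from 40.0 to 227 CPM (median 81.9) after CHI and from 28.1 to 46.5 CPM (median 32.3) after sham, a fold of 2.56 (95% confidence interval 2.10 to 3.12), and it was above every sham mouse in 40 of 46 CHI mice. Hif3a was higher by 0.63 (SE 0.13), with 43 of 46 CHI mice above the sham median. Klf9 was higher by 0.25 (SE 0.08), Tsc22d3 by 0.23 (SE 0.07), and Nr3c1 was lower by 0.19 (SE 0.05). Without C57BL/6J mice, 2 of these passed, against 14.1% of 16575 genes, Fkbp5 at 1.11 (adjusted p = 8.16e-06 in edgeR) and Hif3a at 0.42 (adjusted p = 0.0428). Without IL-1R1 gKO mice 8 passed, against 27.0% of 16741 genes, with Sgk1 at 0.39, Errfi1 at 0.27 and Nfkbia at 0.28 added.

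The comparison was repeated within each experiment of the 9 h mice, with strain and sex but not age in the fit. In eIL-1-76 4 of 10 genes passed, in eIL-1-80 3 and in TM-2-33 0 in edgeR, against 9.7%, 11.2% and 2.76% of all genes. Fkbp5 differed by 1.31 in eIL-1-76 (22 CHI and 9 sham mice), by 1.43 in eIL-1-80 (12 and 7) and by 1.32 in TM-2-33 (12 and 6), with adjusted p of 7.34e-05, 0.00224 and 0.0665 in edgeR. Hif3a differed by 0.75 and 0.91 in the first and second of these (adjusted p = 0.00336 and 0.00401) and by 0.28 in TM-2-33 (adjusted p = 0.715). Klf9 and Tsc22d3 passed in eIL-1-76, at 0.34 and 0.28 (adjusted p = 0.00605 and 0.0488). Klf9 was at 0.19 and 0.15 in eIL-1-80 and TM-2-33. Nr3c1 passed in eIL-1-80, at -0.33 (adjusted p = 0.00582), and was at -0.15 and -0.20 in eIL-1-76 and TM-2-33. Over the strains in each experiment, the sham median of Klf9 was 401 CPM in eIL-1-76, 325 CPM in eIL-1-80 and 252 CPM in TM-2-33, and that of Fkbp5 was 35.2, 29.8 and 33.1 CPM. The experiments held different strains, and only IL-1R1 gKO was in all 3. In IL-1R1 gKO sham mice, 2 per experiment, the medians in that order were 448, 303 and 295 CPM for Klf9 and 33.4, 30.3 and 32.7 CPM for Fkbp5.

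**Figure D4:**
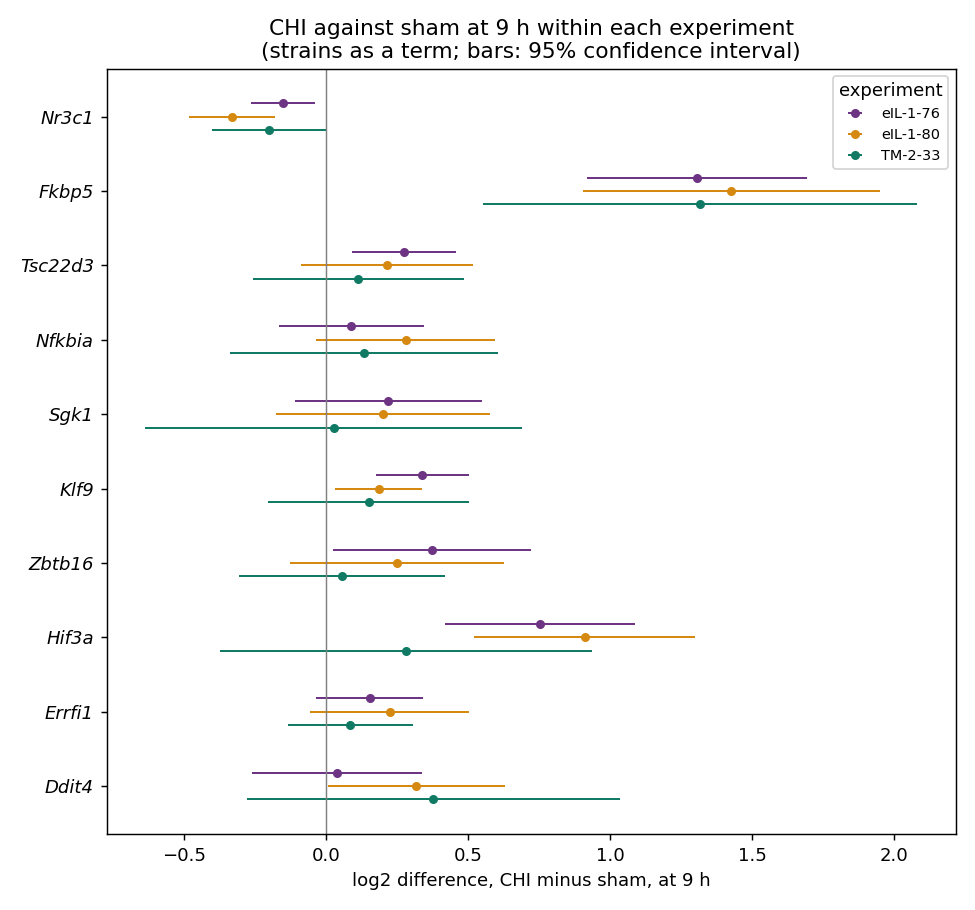
Log2 difference between CHI and sham at 9 h for each gene within each of the 3 experiments that held 9 h mice, with strain and sex as terms in the fit and bars for the 95% confidence interval. The Fkbp5 points lie at 1.31, 1.43 and 1.32, and the Hif3a point is at 0.28 in TM-2-33 against 0.75 and 0.91 in the other experiments.

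Cell markers were counted in the same comparison of CHI with sham at 9 h over the 4 strains, where 26.5% of all genes were called. Of 5 endothelial markers 3 were called higher and 1 lower, and their summed level had a median of 187.3 TPM (117.0 to 277.5) after CHI and 154.1 TPM (96.1 to 197.4) after sham. Of 5 microglial markers 3 were called lower, with P2ry12 at -0.62, and their summed median was 255.1 TPM (145.3 to 392.9) after CHI and 279.9 TPM (210.3 to 432) after sham. Of 5 choroid plexus markers 5 were called lower, with a summed median of 25.6 TPM (5.20 to 2523) after CHI and 49.7 TPM (10.2 to 6275) after sham. Of 5 astrocyte markers 2 were called higher, Gfap at 0.78 and Aldh1l1 at 0.31, and 1 lower, and their summed median was 744 TPM (552 to 966) after CHI and 699.9 TPM (553 to 825) after sham. Of 6 neuronal markers 1 was called higher and 1 lower, and of 5 oligodendrocyte markers 0 were called in edgeR. Of 4 mural cell markers 1 was called higher and 0 lower, and of 2 pituitary markers tested 0 were called. Red cell markers had a summed median of 166.4 TPM (3.91 to 1383) after CHI and 24.6 TPM (3.16 to 762) after sham, and 0 of 4 were called. Neutrophil markers were too low for the test, with a summed median of 0.526 TPM (0 to 65.3) after CHI and 0.153 TPM (0 to 2.35) after sham. The part of these cell types in the differences above was not tested, and in bulk tissue fewer cells of a type and less RNA per cell cannot be told apart.

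At 24 and 72 h, no member passed the threshold in any strain, nor over the 4 strains. These fits did not take account of experiment, and surgery was unevenly spread over experiments at 24 h. There NiL-1-21 held 18 CHI mice and 1 sham mouse, which was C57BL/6J. NiL-1-24 held 8 CHI and 12 sham mice, and eIL-1-38 held 17 and 9. With no filter on low counts 2 passed in C57BL/6J mice at 24 h, Tsc22d3 at -0.27 (SE 0.05, against 0.11 with the filter, adjusted p = 0.000192 in edgeR) and Sgk1 at 0.22 (SE 0.05, against 0.23, adjusted p = 0.0066). The share of all genes called without the filter is not given here. The largest distance from 0 at 24 h was 0.67 for Hif3a in IL-1R1 eRestore mice and at 72 h -0.47 for Hif3a in C57BL/6J mice. At 24 h the genes with an unadjusted p under 0.05 in edgeR numbered 2 in C57BL/6J, 0 in IL-1R1 gKO, 2 in IL-1R1 eRestore and 1 in IL-1R1 nRestore mice, and at 72 h 0, 0, 1 and 0. DESeq2 also called 0 of 10 in each. Of all genes, 0.404%, 0.0059%, 0.0% and 0.0% passed at 24 h in these strains, and 0.0%, 0.0%, 0.00605% and 0.0121% at 72 h. Over the 4 strains 1.96% of 16704 genes passed at 24 h and 0.717% of 16596 at 72 h, with 1 and 0 of the 10 genes at an unadjusted p under 0.05. The gene with an unadjusted p under 0.05 over the 4 strains at 24 h was Tsc22d3, at -0.17 (SE 0.06, adjusted p = 0.118 in edgeR). Between strains the CHI effect differed for 0 of 10 genes at 24 h and at 72 h, also at an unadjusted p under 0.05, and of all genes 0.00541%, 0.0108% and 0.0% passed at 24 h and 0.0%, 0.0% and 0.00543% at 72 h.

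Fkbp5 shows how far the levels had come together. At 24 h it ranged from 22.7 to 45.5 CPM (median 32.0) in 43 CHI mice and from 23.5 to 35.8 CPM (median 28.8) in 22 sham mice, and at 72 h from 22.2 to 39.1 CPM (median 28.0) in 44 CHI mice and from 19.3 to 38.8 CPM (median 29.0) in 23 sham mice. The 95% confidence interval of its CHI difference over the 4 strains was -0.03 to 0.18 at 24 h and -0.11 to 0.08 at 72 h. For Sgk1, which varied more, the same interval was -0.14 to 0.38 at 24 h and -0.20 to 0.29 at 72 h.

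The change of the CHI effect with time was tested over the 4 strains. Between 9 and 24 h it differed for 3 of 10 genes, against 12.3% of 17995 genes: Fkbp5 by 1.31 (SE 0.13), Tsc22d3 by 0.34 (SE 0.10) and Nr3c1 by -0.18 (SE 0.06). Between 9 and 72 h it differed for 5 of 10, against 15.5%: Fkbp5 by 1.42, Hif3a by 0.86, Tsc22d3 by 0.30, Klf9 by 0.28 and Nr3c1 by -0.17, with adjusted p from 5.35e-18 to 0.0294 in edgeR. In C57BL/6J mice alone 4 of 10 genes passed for 9 against 24 h, beside 4.83% of 18124 genes, and 7 of 10 for 9 against 72 h, beside 6.73%. Fkbp5 differed there by 1.92 and 2.09, Tsc22d3 by 0.83 and 0.66, Klf9 by 0.55 and 0.58 and Errfi1 by 0.42 and 0.39, and these passed at both times. Hif3a, Zbtb16 and Nfkbia passed against 72 h, at 1.57, 0.90 and 0.58. Nr3c1 was at -0.31 for both and did not pass (adjusted p = 0.107 and 0.0777 in edgeR).

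The second question was how the genes stood in sham mice over time. The 9 targets were higher at 9 h than later, and Nr3c1 did not pass the test. Against 24 h 9 of 10 genes were higher, and against 72 h the same number, beside 48.9% and 46.8% of 16688 genes that passed in either direction. The median difference over the 10 genes was 0.42 between 9 and 24 h and -0.01 over all genes. A share this high over all genes means that passing the threshold does not set these genes apart. Cell markers moved in the same comparison with 24 h. Of 6 neuronal markers 5 were higher at 9 h and 0 lower, with a summed median of 6272 TPM (5476 to 7598) at 9 h and 5683 TPM (3912 to 6459) at 24 h. Of 5 choroid plexus markers 1 was higher, with a median difference of 1.31 and a summed median of 49.7 TPM (10.2 to 6275) and 28.4 TPM (16.2 to 3087). Of 5 astrocyte markers 1 was higher and 1 lower, and 1 of 5 each was higher for oligodendrocytes and microglia. Of 5 endothelial markers 1 was lower, of 4 mural cell markers 1 was higher, and 0 of 4 red cell markers were called in edgeR. The 1 pituitary marker tested was not called. Their part in the differences of the 10 genes was not tested.

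Sgk1 and Hif3a differed most. Sgk1 ranged from 59.5 to 260 CPM (median 124) at 9 h, from 40.1 to 129.2 CPM (median 55.7) at 24 h and from 40.1 to 105.2 CPM (median 49.6) at 72 h in sham mice, so the ranges overlapped. It was higher at 9 h than at 24 h by 1.00 (SE 0.16, adjusted p = 4.75e-07 in edgeR). Hif3a ranged from 3.3 to 12.4 CPM (median 5.4), from 1.3 to 6.7 CPM (median 3.1) and from 1.5 to 7.8 CPM (median 2.8) at the same times, a difference of 0.97 (SE 0.18) between 9 and 24 h. Fkbp5 differed least among the targets, at 28.1 to 46.5 CPM (median 32.3), 23.5 to 35.8 CPM (median 28.8) and 19.3 to 38.8 CPM (median 29.0), by 0.18 (SE 0.06, adjusted p = 0.00728 in edgeR).

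The remaining targets lay between these. Between 9 and 24 h, Zbtb16 differed by 0.51, Klf9 by 0.47, Nfkbia by 0.47, Tsc22d3 by 0.36, Errfi1 by 0.31 and Ddit4 by 0.27. Nr3c1 was at a sham median of 165.1 CPM at 9 h, 160.4 CPM at 24 h and 165.5 CPM at 72 h, with differences of 0.07 (95% confidence interval -0.02 to 0.16) and 0.00 (-0.09 to 0.09). Between 24 and 72 h 0 of 10 genes differed in edgeR, 0 had an unadjusted p under 0.05, DESeq2 also called 0, and 0.03% of all genes passed.

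Leaving out the IL-1R1 eRestore sham mouse at 24 h whose sex genes go against its label, an alternative chosen after seeing the data, took Ddit4 over the 4 strains to an adjusted p of 0.0602 in edgeR between 9 and 24 h. In C57BL/6J sham mice alone, 6 a group, 4 of 10 genes were higher at 9 h than at 24 h, against 23.4% of 16577 genes called in either direction, and 4 of 10 were higher at 9 h than at 72 h, against 25.5%. These were Sgk1, Klf9, Errfi1 and Nfkbia both times. Fkbp5, Tsc22d3 and Hif3a were at 0.07, 0.07 and 0.18 between 9 and 24 h (adjusted p = 0.504, 0.768 and 0.695 in edgeR).

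**Figure D5:**
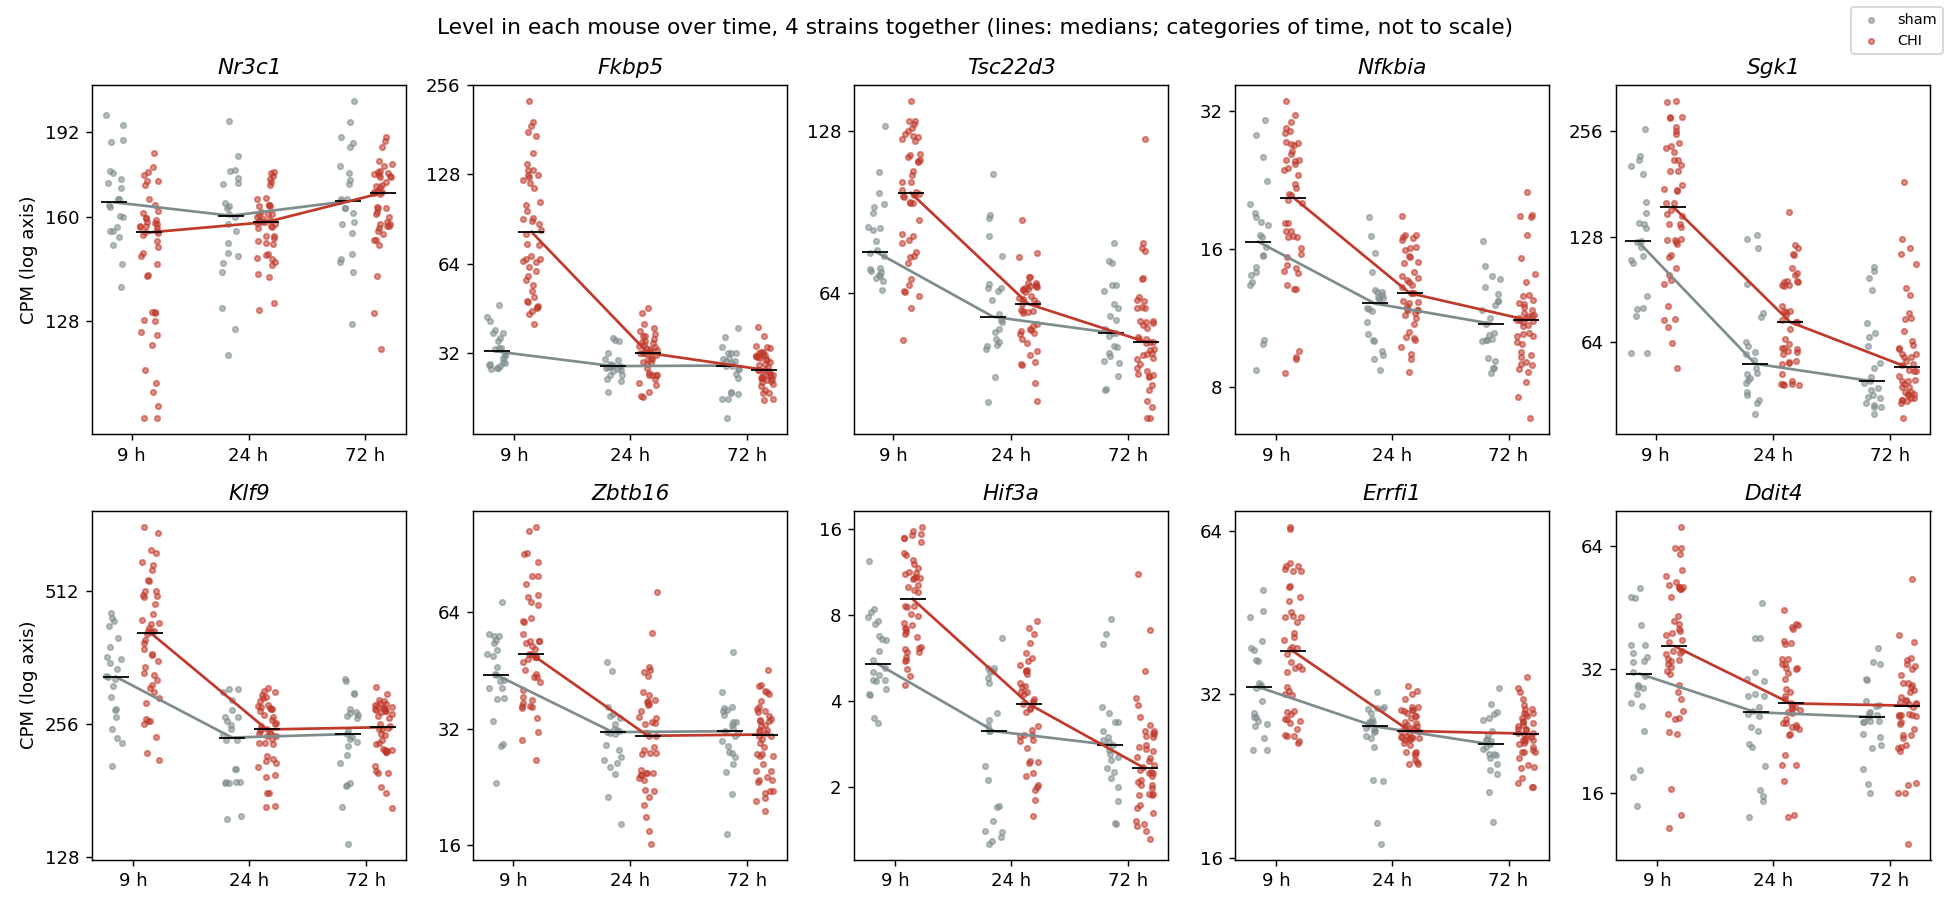
Level of each gene in CPM on a log axis in every mouse of the 4 strains at 9, 24 and 72 h, with sham mice in grey, CHI mice in red and lines through the medians. The sham median of Sgk1 is 124 CPM at 9 h and 55.7 CPM at 24 h, whereas that of Nr3c1 stays between 160.4 and 165.5 CPM.

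The sexes were compared next. At 9 h the CHI effect differed between females and males for 0 of 10 genes in edgeR, also at an unadjusted p under 0.05, and for 0.0% of 17639 genes. The interval of the difference for Fkbp5 was wide, -0.58 to 0.51. In sham mice 0 of 10 genes differed between the sexes in edgeR, against 0.105% of 16196 genes, and 2 had an unadjusted p under 0.05. These were Hif3a, higher in females by 0.32 (adjusted p = 0.603), and Zbtb16, by 0.15 (adjusted p = 0.621).

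Between genes, levels can be compared only per length. In sham mice at 9 h the medians were 137.7 TPM for Klf9, 98.8 TPM for Sgk1, 83.3 TPM for Tsc22d3, 61.8 TPM for Nr3c1, 37.5 TPM for Ddit4, 22.6 TPM for Nfkbia and for Fkbp5, 21.6 TPM for Errfi1, 17.1 TPM for Zbtb16 and 1.72 TPM for Hif3a. The ranges of neighbours in this order overlapped, except that every Hif3a value, up to 3.88 TPM, lay below every Zbtb16 value, from 7.83 TPM. In C57BL/6J mice at 9 h Fkbp5 had medians of 76.0 TPM after CHI and 20.1 TPM after sham.

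Some pairs of the genes varied together from mouse to mouse, and others did not. Each log2 CPM was first taken as its distance from the mean of the mouse's group, of 1 strain, surgery and time. Over the 46 CHI mice at 9 h, Pearson's r of these distances was -0.59 between Nr3c1 and Fkbp5, 0.64 between Fkbp5 and Tsc22d3, 0.52 between Fkbp5 and Hif3a, 0.79 between Sgk1 and Nfkbia and 0.78 between Sgk1 and Tsc22d3. Over the 22 sham mice at 9 h the same pairs had r of -0.36, 0.72, 0.59, 0.87 and 0.80. Over the 45 pairs r ran from -0.61 to 0.79 in the CHI mice and from -0.36 to 0.87 in the sham mice. Zbtb16 had r near 0 with Errfi1 (-0.0068) and with Nfkbia (0.06) in the CHI mice, and -0.23 and -0.06 in the sham mice. Both values of a pair come from 1 library. Differences between strain means were removed, but the mice come from 3 experiments, and differences between experiments within a strain enter r. The spread of Fkbp5 within strains at 9 h, as a standard deviation of log2 CPM, was 0.52 after CHI and 0.21 after sham, and it was 0.21 after CHI at 24 h and 0.17 at 72 h.

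Genes with the most similar pattern were sought by Pearson's r over the means of the 24 groups, among 13709 genes. Closest to Fkbp5 were Pnpla2 (0.98), which encodes a triglyceride lipase, Wipf3 (0.98) and Spns2 (0.97). Closest to Sgk1 were Slc2a1 (0.97), a glucose transporter, Ciart (0.96), a repressor of the clock, and Slc7a5 (0.96). Closest to Hif3a were Sdc4, Mertk and Mfsd2a (each 0.95). Closest to Nr3c1 were 9930021J03Rik (0.90), Tmem64 (0.885) and Numb (0.883). Tsc22d3 and Nfkbia each had Sgk1 among their 3 closest genes (0.95 for both), and Errfi1 had Klf9 (0.97).

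Other genes of the pathway were counted at 9 h over the 4 strains. Their lists were chosen with earlier results of these data known, so the counts are a description. Of 26 other glucocorticoid-induced genes, 25 were tested, 19 were higher and 3 lower, with a median difference of 0.42, where 26.5% of all genes were called. The largest among those called were Lcn2, an iron-binding protein also known from acute inflammation, at 3.42 (SE 0.42), Plin4, a lipid droplet protein, at 1.91 (SE 0.20), Cdkn1a, an inhibitor of the cell cycle, at 1.13 (SE 0.17), and Map3k6 at 1.04 (SE 0.13). In C57BL/6J mice alone 18 of 26 were higher and 2 lower, beside 14.1% of all genes called. In IL-1R1 gKO mice 0 of 25 were called in edgeR, where 0.199% of all genes were. In IL-1R1 eRestore mice 2 were higher, a share near the 7.34% of all genes called there. In IL-1R1 nRestore mice 2 were higher, beside 0.608%. The median difference over the list was 0.74 in C57BL/6J, 0.34 in IL-1R1 gKO, 0.17 in IL-1R1 eRestore and 0.69 in IL-1R1 nRestore mice. The counts do not follow this order, and these medians were not tested against each other. That of IL-1R1 nRestore mice was not taken without CHI replicate 2. At 24 h over the 4 strains 1 was higher and 2 lower, beside 1.96% of all genes, and at 72 h 0 were called, beside 0.717%. In sham mice 13 of 24 were higher at 9 h than at 24 h and 2 lower, where 48.9% of all genes were called.

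The receptor's own machinery was counted in the same comparison, with 26.5% of all genes called. Of 22 genes for the mineralocorticoid receptor, hormone release, Hsp90 chaperones and coactivators, 20 were tested, 0 were higher and 3 lower: Crhr1, a receptor of corticotropin-releasing hormone, by -0.29 (SE 0.04), Crh, the hormone, by -0.29 (SE 0.08) and Ncoa3, a coactivator, by -0.13 (SE 0.05, adjusted p = 0.0499 in edgeR). The median over this list was -0.02. In sham mice 9 of 21 were higher at 9 h than at 24 h and 2 lower, beside 48.9% of all genes.

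Lists for other inputs to the same genes were counted likewise, and their counts stand beside the 26.5% of all genes called in this comparison. Of 11 NF-kB-induced genes tested, 4 were higher and 1 lower, led by the chemokine Cxcl10 at 1.99 (SE 0.35) and the adhesion molecule Icam1 at 0.48 (SE 0.13). Of 12 hypoxia-induced genes 5 were higher and 1 lower, with adrenomedullin (Adm) at 0.43 (SE 0.12), hexokinase 2 (Hk2) at 0.34 (SE 0.07) and P4ha1, a collagen hydroxylase subunit, at -0.31 (SE 0.05). Of 8 ATF4 targets 1 was higher and 2 lower, with the cystine transporter Slc7a11 at -0.49 (SE 0.07). Of 14 clock genes 4 were higher and 2 lower, with Tef at 0.29 (SE 0.03), Per3 at 0.27 (SE 0.07) and Per1, itself a glucocorticoid target, at -0.21 (SE 0.07). In sham mice 9 of 14 clock genes were higher at 9 h than at 24 h and 0 were lower, again beside 48.9% of all genes. There 1 of 11 NF-kB-induced genes was higher and 6 were lower, 3 of 12 hypoxia-induced genes were higher and 5 lower, and 3 of 8 ATF4 targets were higher and 1 lower. Which of these inputs moved the 10 genes was not tested.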

How the data were processed

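Per the study's methods and the labels, the authors aligned paired-end reads of poly(A) RNA to GRCm39 with STAR, quantified them with Salmon in the nf-core/rnaseq pipeline, and deposited gene tables of estimated counts and of TPM. Whether counting used strand is not given in the sources used here, and all targets but Ddit4 overlap another annotated gene. Here estimated counts (10.8% of values not whole) were rounded, and a gene was kept if the number of mice with 10 or more counts reached the size of the smaller group. Tests were edgeR (4.0.16) quasi-likelihood with TMM factors, sex and age as covariates (no age where times were compared or for sex in sham mice, no sex in IL-1R1 nRestore mice at 72 h), strain where strains were joined, and Benjamini-Hochberg adjustment over all genes tested. DESeq2 (1.42.0), with and without gene-length offsets, was an alternative. Shares over all genes are for edgeR at the adjusted threshold. None is given for an unadjusted p, for DESeq2 or for fits with no filter on low counts. CPM used edgeR's scaled library sizes, and TPM was used as deposited for levels only.

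Mice were grouped by label, and each mouse was counted once. The fits were tested on simulated data first. Motifs were searched in GRCm39 with GENCODE. The 10 genes and the other lists were chosen with earlier results of these data known. Besides these genes, up to 4 called genes per list were named, by size over the 4 strains at 9 h, with Il1r1 and the 3 genes most like each of the 10 (mean log2 CPM above 1), some of which are not reported here. ATF4 targets lost Ddit3 (2 rows) and clock genes lost Bmal1 (no row). Other alternatives were RLE factors, other filters on low counts, no covariates, experiment as a covariate, and single mice, strains or experiments left out. Those without the mice whose sex genes go against the label, without 1 IL-1R1 nRestore CHI mouse, and within eIL-1-76 and eIL-1-80 between strains were chosen after seeing the data.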

Additional observations from a re-analysis of the deposited data

Results flagged for a closer look

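In groups of 4 to 10 mice, the highest or lowest mouse of each gene was compared with the rest by Dixon's test, which marked 10 of 160 cases. Chance alone marks about 1 in 20 groups, and the values below, in CPM, are given without an explanation. Both highest values at 9 h among IL-1R1 nRestore CHI mice came from replicate 2, which was at 177.8651 for Fkbp5 (others 45.5 to 74.3) and at 44.5321 for Errfi1 (others 26.1 to 29.8). This mouse was the highest of the 6 for each of the 9 targets and the lowest for Nr3c1. At 9 h the lowest values were Errfi1 at 28.5912 in C57BL/6J sham replicate 1 (others 36.8 to 40.1) and Ddit4 at 14.8777 in IL-1R1 gKO sham replicate 5 (others 26.4 to 35.0). At 24 h the highest values were Sgk1 at 99.5814 in IL-1R1 eRestore CHI replicate 7, Sgk1 at 129.1973 in IL-1R1 gKO sham replicate 3 (others 40.1 to 50.1) and Tsc22d3 at 75.8619 in IL-1R1 nRestore CHI replicate 1. The lowest at 24 h was Nfkbia at 9.5704 in IL-1R1 eRestore sham replicate 2. At 72 h the lowest were Zbtb16 at 17.1297 in IL-1R1 eRestore sham replicate 3 and Klf9 at 136.9875 in IL-1R1 gKO sham replicate 3.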

How the results depend on the processing

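No paired analysis was possible because replicate numbers were given in the order of deposition and only name mice. Of 670 repeated tests of single genes, 600 kept their direction and their side of the threshold, 27 lost it, 22 gained it and 21 changed sign; of the repeated counts of genes called, 190 stayed within 1.5 times and 12 did not. The number of the 10 genes called at 9 h was 1 in IL-1R1 gKO mice with DESeq2 under both of its normalizations (0 before), 1 in IL-1R1 eRestore mice without covariates or with experiment in place of age (2 before), and 4 in IL-1R1 nRestore mice with no filter on low counts (0 before). With no filter, for which no share of all genes is given, it was 2 in C57BL/6J mice at 24 h (0 before). Over the 4 strains at 9 h it was 3 in eIL-1-80 alone, 0 in TM-2-33 alone, 2 without C57BL/6J mice and 8 without IL-1R1 gKO mice (5 before). In sham mice it was 4 in C57BL/6J mice alone for 9 against 24 h and for 9 against 72 h (9 before). The cause was not tested.

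Each change of sign was in a difference that had not passed the threshold, and each is given on the log2 scale for 9 h. In IL-1R1 gKO mice Sgk1 was at 0.0351 with gene-length offsets and 0.0044 with experiment in place of age. Errfi1 there was at -0.0003 in DESeq2, -0.0001 with RLE factors, -0.0023 without a filter, -0.0009 with 10 counts in every mouse, -0.0146 without covariates and -0.0014 with experiment, and Nfkbia at -0.0254 without covariates. In IL-1R1 eRestore mice Nr3c1 was at 0.17 with gene-length offsets, and Nfkbia at -0.0005 with 10 counts in every mouse, -0.0476 without covariates and -0.0711 with experiment. The IL-1R1 nRestore mice came from 1 experiment, so replacing age by experiment left sex alone as covariate. Without covariates and with sex alone in turn, Sgk1 there was at -0.0042 and -0.0466 and Zbtb16 at -0.0948 and -0.1348, while Nfkbia was at -0.0001 with sex alone. Zbtb16 there lay between -0.2557 and 0.10 when single mice were left out, with -0.01 without sham replicate 3. Nfkbia over the 4 strains was at -0.0208 without C57BL/6J mice.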
